A study of Mus musculus with 18 samples.

Results

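The glutathione S-transferase (GST), UDP-glucuronosyltransferase (UGT) and sulfotransferase families were followed in mouse jejunum, the middle part of the small intestine, after abdominal irradiation. They were taken by name, as every gene of the count table whose symbol starts with Gsta, Gstm, Gstp, Gstt, Gsto, Gstk, Mgst, Ugt1a, Ugt2a, Ugt2b or Sult followed by a digit, with numbered "-ps" pseudogenes left out. This gave 64 of the 54532 genes in the table: 4 Gsta, 7 Gstm, 10 other soluble GST, 3 Mgst, 9 Ugt1a, 10 Ugt2 and 21 Sult genes. C57BL/6 mice aged 8 to 12 weeks received 1 whole-abdominal dose of 15 Gy, either at an ultra-high dose rate (FLASH) or at a conventional dose rate (CONV), and the untreated controls received none. Whole jejunum was collected 16 h later and its polyadenylated RNA sequenced, in 6 control, 5 CONV and 7 FLASH libraries. The labels give no sex, no substrain and no link from library to animal, and a p-value here reflects variation among libraries only, which may be partly technical.

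These enzymes carry out the conjugation step by which the gut wall and liver dispose of drugs, dietary compounds, steroids, bilirubin and reactive lipid products. GSTs join glutathione to electrophiles, UGTs attach glucuronic acid from UDP-glucuronate in the endoplasmic reticulum, and cytosolic sulfotransferases transfer sulfate from the donor PAPS. In the small intestine many of them are made mainly by absorptive enterocytes, and several GST genes are known targets of NRF2, the transcription factor of the oxidative stress response.

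Of the 64 genes, 39 had enough counts to be tested: all 4 Gsta, 7 Gstm and 3 Mgst genes, 8 of 10 other soluble GST genes, 5 of 9 Ugt1a, 5 of 10 Ugt2 and 7 of 21 Sult genes. The other 25 had between 0 and 107 counts summed over all 18 libraries. Among them were the 8 Sult2a genes, Sult1e1 (estrogen sulfotransferase), Sult3a1, Ugt2b1 and Gsto2. With so few counts, a difference in these 25 genes was not detectable at this depth. Of the 39, 33 were at or above the filter's cutoff of 0.382 CPM in all 18 libraries. Gsta2 was at or above it in 0 control libraries and Sult6b2 in 1, so both passed the filter through the irradiated libraries, where they were high, and had to differ from control. Their calls are part of the counts below but support nothing.

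The libraries held 19936095 to 30196611 estimated counts each. Values below are CPM, counts scaled to a common library total, after edgeR's TMM scaling, and log2 fold changes are given with their standard error (SE), from edgeR's quasi-likelihood test with Benjamini-Hochberg adjustment over all 16257 genes tested. A gene was called changed at an adjusted p under 0.05. Some libraries stood apart within their groups. Control 6 was the highest control library for 33 of the 39 tested members, CONV 6 the highest CONV library for 28, and FLASH 7 the lowest FLASH library for 33. Control 6 and CONV 6 also showed the steepest loss of long transcripts, with slopes of -0.30 and -0.31 log2 units per doubling of transcript length, followed by FLASH 1 at -0.25, against -0.22 to 0.22 in the other libraries. Values without these libraries are given where leaving 1 out changed a call or moved a called value by much.

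Summed over all 64 members, CPM was 1861 in the lowest control library, 2853 in the median one and 6303 in the highest. It was 4858 to 9787 in CONV libraries, with a median of 5737, and 5094 to 10623 in FLASH libraries, with a median of 8122. All but 1 control library, control 6, lay below every irradiated library, and control 6 overlapped both irradiated groups. The members made up 0.232 to 0.666% of all counts in control libraries, 0.538 to 0.825% in CONV and 0.483 to 0.877% in FLASH.

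**Figure D1:**
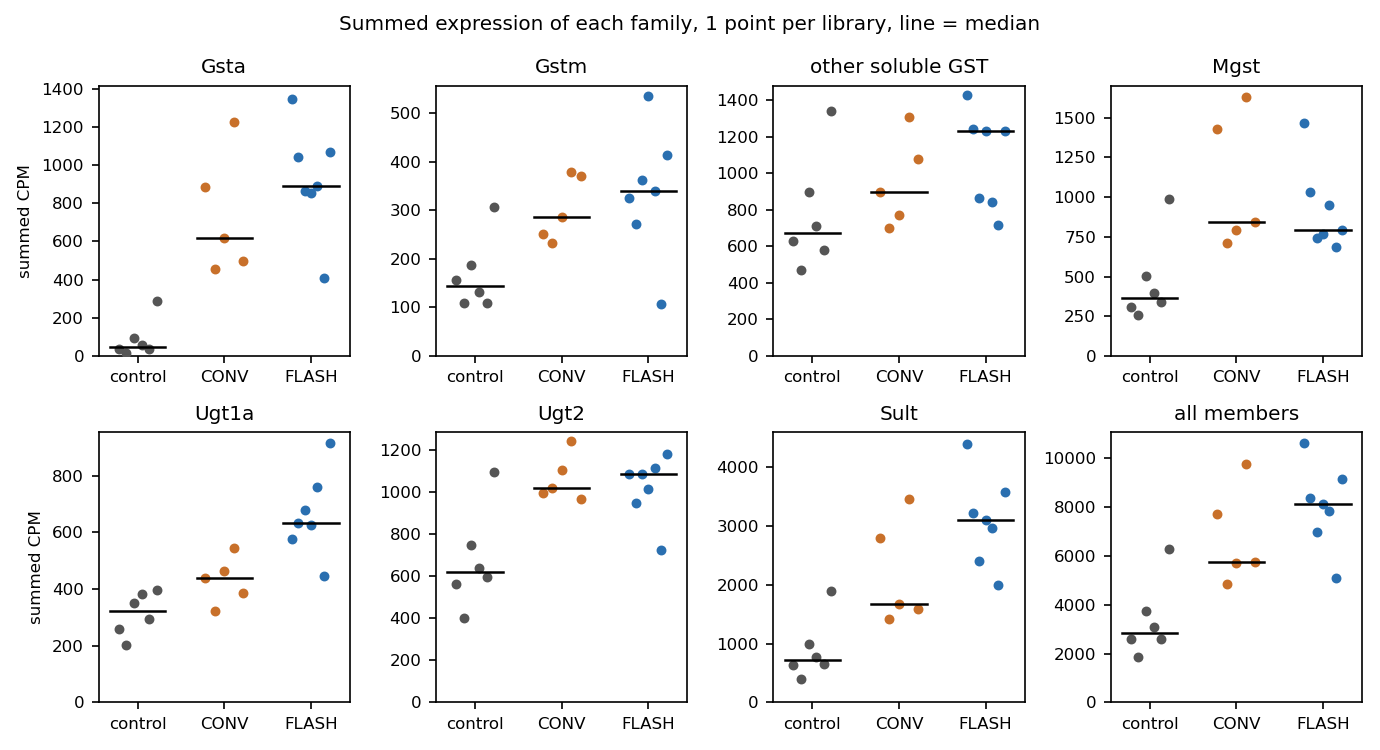
Summed CPM of each family and of all 64 members (vertical axes, linear from 0), with 1 point per library and a line at the group median. Over all members the control median was 2853 CPM, the CONV median 5737 and the FLASH median 8122, and control 6 is the control point that reaches into the irradiated groups.

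In CONV against control, 13 of 39 tested members rose and 0 fell, where 10.2% of all 16257 genes rose and 12.0% fell. At an unadjusted p under 0.05, edgeR gave 21 higher and 0 lower, and DESeq2 and limma-trend also called 0 lower. The share of all genes at that unadjusted threshold was not counted. The 21, and the unadjusted counts of single families below, therefore cannot be set against the shares above. The groups did not overlap for 7 members, all higher in CONV, against 10.4% of all genes in either direction. These 7 include Gsta2 and Sult6b2, which had to differ from control because of how they passed the filter, so neither supports anything. The median member difference was 0.64 log2, beside -0.04 over all genes. The count of risen members was 26 without control 6, and 1 member fell without CONV 6. There were 21 risen without control 6, CONV 6 and FLASH 1 together.

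In FLASH against control, 19 members rose and 1 fell, beside 16.7% and 21.0% of all genes. The groups did not overlap for 9 members, 8 higher and 1 lower in FLASH, against 13.8% of all genes. The 8 include Sult6b2, which had to differ from control because of how it passed the filter and so supports nothing. The median member difference was 0.71 log2, beside -0.07 over all genes. Without FLASH 1, or without FLASH 7, 2 members fell. Both comparisons use the same control libraries and are therefore not independent of each other.

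FLASH and CONV, given at the same dose, differed for few members. Of the 39, 2 were higher and 3 lower in FLASH, where 9.88% and 9.91% of all genes were called in these directions. Only 2 members did not overlap between these groups, against 8.53% of all genes, and the median member difference was -0.01 log2, beside -0.02 over all genes. These are 5.13% and 7.69% of the members, no more than the background. The count of higher members was 5 without FLASH 7, 1 without CONV 2, CONV 3, FLASH 6 or FLASH 9, and 0 without CONV 7. The count of lower members was 1 without CONV 2 or CONV 7.

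**Figure D2:**
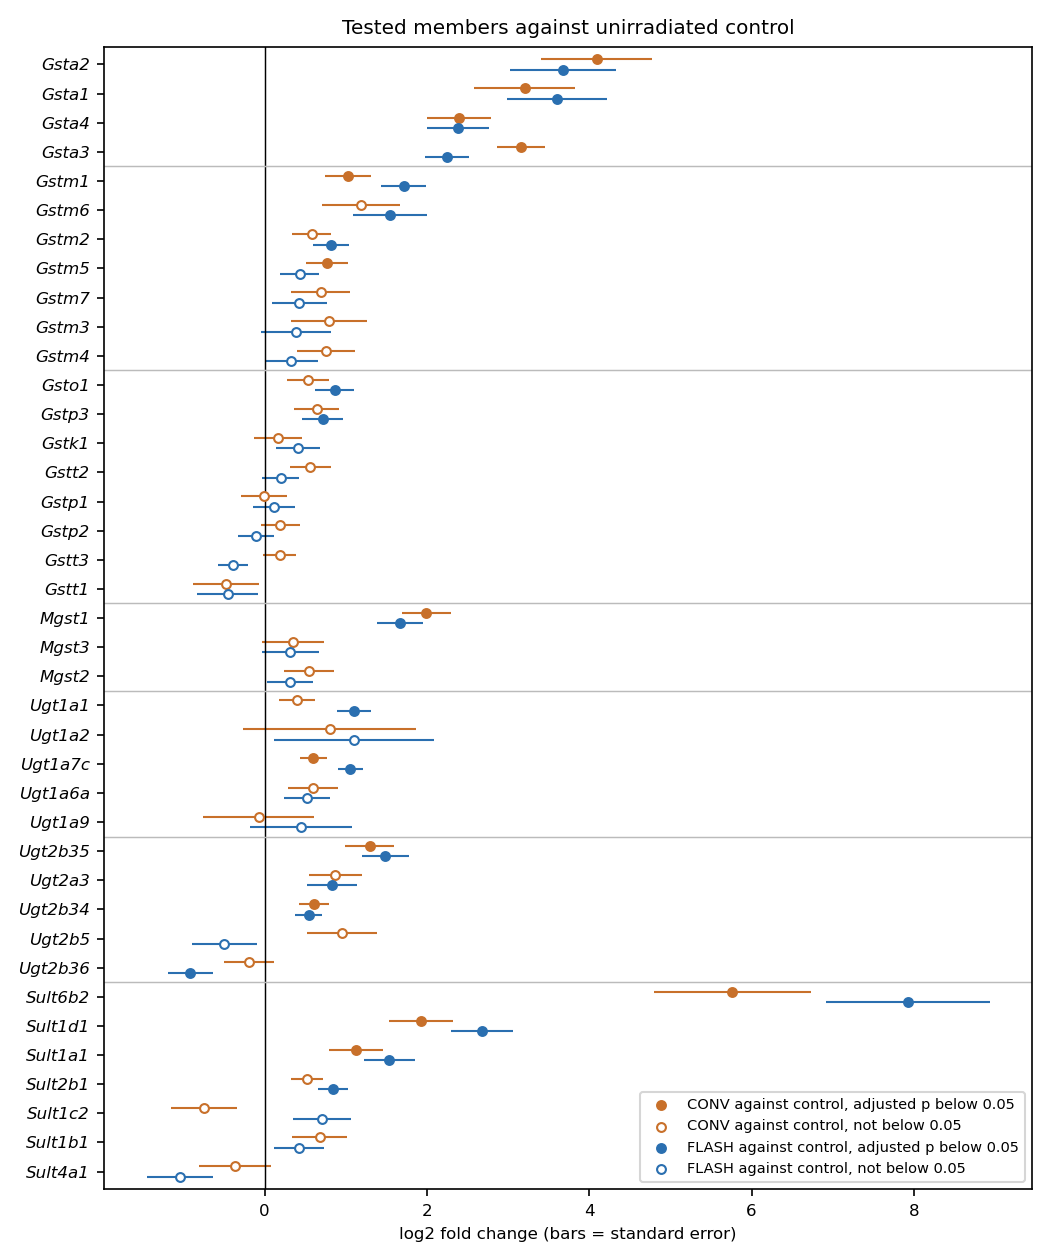
Log2 fold change against control (horizontal axis, bars are SE) of the 39 tested members in CONV (orange) and FLASH (blue), grouped by family. Filled points passed an adjusted p of 0.05, and Sult6b2 lies farthest to the right in both comparisons, at 5.76 and 7.93.

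The alpha-class genes Gsta1, Gsta3 and Gsta4 rose in both irradiated groups, and so did Gsta2, which passed the filter only through them. Gsta1 (chr9:78230656-78242684, plus strand), an alpha-class enzyme known to be inducible by antioxidants, ran from 8.04 to 238 CPM in controls, with a median of 31.0. It was at 763, 370.0, 520.5, 1046 and 396 CPM in the 5 CONV libraries, and at 358 to 1209, with a median of 801, in FLASH. Every irradiated library was above every control library. The log2 difference was 3.20 ± 0.63 (SE) in CONV (adjusted p = 0.00183, edgeR) and 3.61 ± 0.62 in FLASH (adjusted p = 2.0e-04), and 4.23 and 4.63 without control 6. FLASH and CONV overlapped, with a difference of 0.40 ± 0.58 (adjusted p = 0.664).

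Gsta1 has a near-identical neighbour, and its value cannot be fully separated from it. Of the 100-base windows in its transcripts, 81.8% also occur in another gene, and 71.3% in Gm3776. Over their 672 coding bases Gsta1 and Gm3776 differ at 2, and Gsta1 and Gsta2 at 14 of 669 aligned. The coding bases 451 to 510, counted from the A of the start codon in GENCODE M21 transcripts, hold the densest cluster of differences from Gsta2 and show how few bases tell reads of these genes apart (capitals mark the 5 bases that differ). In this stretch Gm3776 has 0 differences from Gsta1.
Gsta1: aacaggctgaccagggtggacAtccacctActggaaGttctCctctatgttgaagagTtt
Gsta2: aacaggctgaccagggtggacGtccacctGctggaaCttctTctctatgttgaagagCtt
Gm3776 rose by 3.04 ± 0.67 log2 in CONV and 3.27 ± 0.66 in FLASH (adjusted p = 0.00454 and 8.0e-04, edgeR), from a control median of 4.43 CPM. Gm10639, whose coding sequence differs from that of Gsta2 at 10 of 669 bases, rose by 2.83 ± 0.63 and 3.536 ± 0.62 (adjusted p = 0.00449 and 2.4e-04, edgeR). How reads were divided within these pairs was not tested.

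Gsta2 (chr9:78331018-78355788, minus strand), the close relative of Gsta1, was barely present in controls, with 0, 2, 5, 1, 0 and 9 counts in control libraries 1 to 6. CONV libraries held 31 to 56 counts and FLASH libraries 7 to 55. The fitted differences, 4.09 ± 0.68 log2 in CONV and 3.68 ± 0.66 in FLASH (adjusted p = 5.7e-04 and 3.0e-04, edgeR), therefore rest on very few control reads. Without control 6 they were 4.90 and 4.48.

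Gsta3 (chr1:21240589-21265661, plus strand), known in the mouse for inactivating the epoxide of aflatoxin B1, was the 1 gene of the family called different between the dose rates. Controls ran from 1.54 to 4.96 CPM, with a median of 1.76. CONV libraries were at 23.2, 17.5, 21.3, 28.2 and 18.2 CPM, and FLASH libraries at 7.70 to 16.9, with a median of 11.7. The 3 groups did not overlap: every FLASH library lay above every control and below every CONV library. The rise was 3.15 ± 0.30 log2 in CONV (adjusted p = 1.4e-06, edgeR) and 2.25 ± 0.27 in FLASH (adjusted p = 8.5e-06). FLASH was lower than CONV by 0.91 on the log2 scale, a log2 fold change of -0.91 ± 0.26 (adjusted p = 0.0222, edgeR), which missed the threshold without CONV 2 (adjusted p = 0.0501) or CONV 6 (adjusted p = 0.0619). None of Gsta3's 100-base windows, 0%, was shared with another gene.

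Gsta4 (chr9:78182774-78209349, plus strand), which conjugates 4-hydroxynonenal, an aldehyde product of lipid peroxidation, rose in both groups. Its control range was 7.44 to 45.4 CPM with a median of 13.1, its CONV libraries were at 98.9, 68.4, 74.9, 147 and 82.9 CPM, and its FLASH range was 41.5 to 123 with a median of 101. Only FLASH 7 reached down into the control range. The differences were 2.39 ± 0.40 and 2.38 ± 0.38 log2 (adjusted p = 5.5e-04 and 1.1e-04, edgeR), and -0.01 ± 0.37 between FLASH and CONV (adjusted p = 0.987).

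Gsta3 and Gsta1, which both rose, differed in the promoter letters searched. The core of the antioxidant response element, the site through which NRF2 acts, was searched as TGACNNNGC on both strands in RefSeq windows of 250 bases before to 50 after each start (GRCm38.p6). It was present for 4 of the 57 members with a window (Gsta3, Gstm5, Gstm7 and Mgst1) and in 12.4% of all 32851 windows. The bases 150 to 21 before the start are printed for both genes, from chr1:21240435-21240564 and chr9:78230519-78230648, plus strand, with the match in capitals.
Gsta3: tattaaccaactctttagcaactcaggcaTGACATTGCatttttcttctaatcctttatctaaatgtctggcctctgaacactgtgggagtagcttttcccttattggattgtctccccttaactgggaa
Gsta1: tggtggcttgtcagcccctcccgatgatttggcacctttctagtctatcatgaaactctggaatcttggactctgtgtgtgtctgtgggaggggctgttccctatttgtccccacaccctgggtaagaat
The Gsta3 match starts 121 bases before the start, and these letters do not occur in the Gsta1 window. Sequence outside the windows, farther from the starts, was not searched, so a site there would be missed. A match is a description of the letters, not of binding. Among other motifs searched, the D-box TTATGNAA was in the windows of 4 members (3.99% of all genes with a window). GCGTG, the core of the element bound by the aryl hydrocarbon receptor, was in those of 12 (35.2%) and the CDX2 motif TTTATNG in those of 7 (12.5%). Neither the HNF1 motif (0.074% of all genes with a window) nor the HNF4 direct repeat (0.048%) matched in any member's window.

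**Figure D3:**
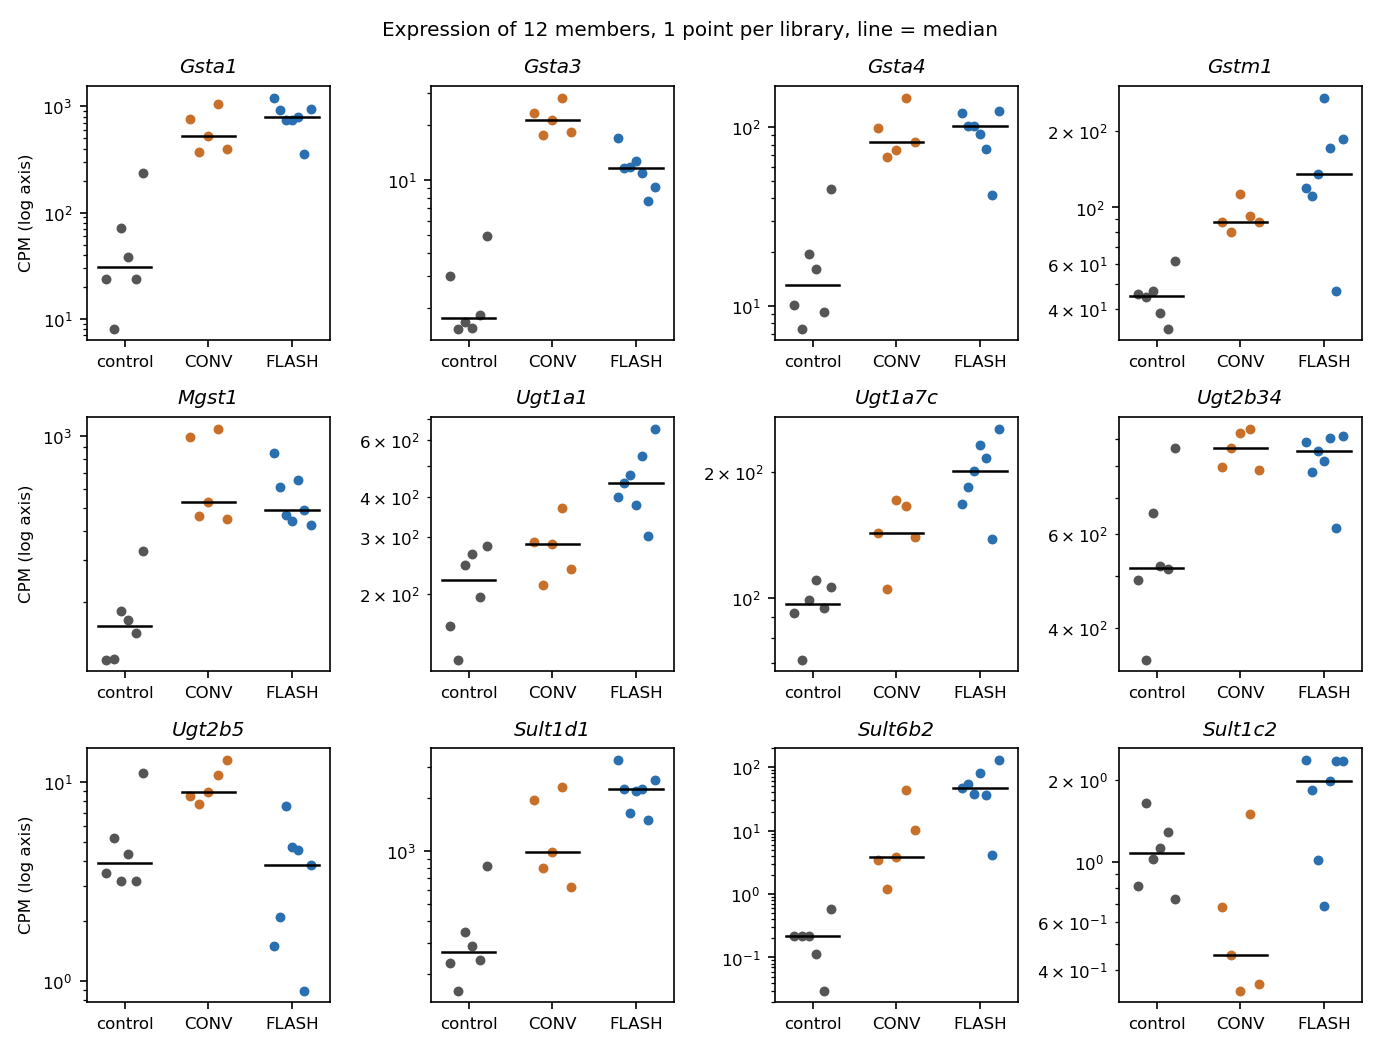
CPM on log axes of 12 members, with 1 point per library and a line at the group median. Gsta3 shows 3 separate bands, with FLASH (7.70 to 16.9 CPM) between control and CONV, while Ugt2b5 is lower in FLASH (0.888 to 7.58 CPM) than in every CONV library.

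The mu-class genes (Gstm), which conjugate epoxides and other electrophiles and lie side by side on chromosome 3, had smaller fold changes. Of 7, 2 rose in CONV and 3 in FLASH, beside 10.2% and 16.7% of all genes. Gstm1 (chr3:108012255-108017973, minus strand) ran from 33.5 to 61.9 CPM in controls with a median of 45.1. It was at 87.5, 80.4, 113, 92.5 and 87.4 CPM in CONV and at 47.2 to 269, with a median of 135, in FLASH. All CONV libraries were above all controls, and only FLASH 7 fell within the control range. It rose by 1.03 ± 0.29 log2 in CONV (adjusted p = 0.0172, edgeR) and 1.71 ± 0.27 in FLASH (adjusted p = 1.1e-04). FLASH against CONV gave 0.69 ± 0.28 (adjusted p = 0.0922), and without FLASH 7 it was 0.84 (adjusted p = 0.0143).

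Gstm2 ran from 12.9 to 26.1 CPM in controls, was at 24.2, 19.9, 18.9, 35.2 and 28.9 CPM in CONV, and ran from 15.5 to 41.4, with a median of 28.2, in FLASH. The FLASH libraries other than FLASH 7 lay near or above the highest control. It rose by 0.82 ± 0.22 log2 in FLASH (adjusted p = 0.00762, edgeR), and the CONV difference was 0.58 ± 0.24 (adjusted p = 0.0836). When scaled by library totals the FLASH difference was 0.44 and did not pass (adjusted p = 0.0713, edgeR), and without control 6 the CONV difference was 0.74 and passed (adjusted p = 0.0172). Gstm6 rose by 1.54 ± 0.46 in FLASH (adjusted p = 0.0128, edgeR) and by 2.19 without control 6, beside 1.19 ± 0.48 in CONV (adjusted p = 0.0784), where it passed without control 6 at 1.84 (adjusted p = 0.00241). Gstm5 passed in CONV at 0.77 ± 0.26 (adjusted p = 0.0420, edgeR), a call that was lost in 13 of 20 alternative fits (0.61 and adjusted p = 0.141 without CONV 6), and had 0.43 ± 0.24 in FLASH (adjusted p = 0.171), or 0.64 without control 6 (adjusted p = 0.0261).

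Gstm3, the mu-class gene with the highest mean CPM besides Gstm1, ran from 27.6 to 134 CPM in controls, was at 69.1, 89.5, 97.9, 143 and 158 CPM in CONV and ran from 10.9 to 149, with a median of 85.9, in FLASH. The 3 groups overlapped widely. Its differences from control, 0.79 ± 0.47 and 0.39 ± 0.44 log2, did not pass (adjusted p = 0.216 and 0.513, edgeR). Gstm4 and Gstm7 did not pass in either comparison, with 0.76 ± 0.36 and 0.69 ± 0.36 in CONV and 0.33 ± 0.33 and 0.43 ± 0.33 in FLASH. Without control 6, Gstm4 passed in CONV at 0.93 (adjusted p = 0.0474, edgeR), and Gstm7 in CONV at 1.04 and in FLASH at 0.78 (adjusted p = 0.0186 and 0.0465). For the whole class the summed CPM had medians of 144 in control, 287 in CONV and 340 in FLASH.

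Of the other soluble GST genes, 8 were tested. In CONV, 0 of 8 were called in either direction by edgeR, beside 10.2% of all genes higher and 12.0% lower. At an unadjusted p under 0.05, 2 were higher and 0 lower. In FLASH, 2 of 8 rose and 0 fell, beside 16.7% and 21.0% of all genes, and the unadjusted counts were the same. Gsto1, an omega-class enzyme that reduces mixed disulfides and dehydroascorbate, ran from 220 to 604 CPM in controls with a median of 340.2. CONV libraries were at 482, 381, 446, 782 and 542 CPM and FLASH libraries at 419 to 858, with a median of 692. FLASH and control overlapped only through control 6, at 604. It rose by 0.86 ± 0.24 log2 in FLASH (adjusted p = 0.00905, edgeR), beside 0.53 ± 0.26 in CONV (adjusted p = 0.135), which was 0.74 without control 6 (adjusted p = 0.0220).

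Gstp1, the pi-class enzyme that is among the most widely expressed GSTs, had 147 to 436 CPM in controls with a median of 185. It had 236, 169, 175.5, 285 and 319 CPM in CONV and 179 to 390, with a median of 225, in FLASH. The groups lay over each other. The differences from control were -0.01 ± 0.28 and 0.12 ± 0.26 log2 (adjusted p = 0.982 and 0.752, edgeR). Gstp2, which shares 36.3% of its 100-base windows with Gstp1, had 0.19 ± 0.24 and -0.11 ± 0.22. Gstp3 rose by 0.71 ± 0.26 in FLASH (adjusted p = 0.0347, edgeR), a call lost in 9 alternative fits, among them those scaled by library totals (0.36, adjusted p = 0.182) and without FLASH 1 (0.62, adjusted p = 0.0710). In CONV it passed without control 6, at 0.83 (adjusted p = 0.0205, edgeR).

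Gstt3 (chr10:75774115-75781414, minus strand), a theta-class gene, was lower in FLASH than in CONV. Controls ran from 27.7 to 51.6 CPM, CONV libraries were at 41.2, 39.9, 41.2, 52.6 and 50.6 CPM, and FLASH libraries ran from 19.2 to 43.0 with a median of 25.3. Only FLASH 4, at 43.0 CPM, reached the CONV range. The log2 fold change was -0.58 ± 0.20 (adjusted p = 0.0468, edgeR), and it did not pass in 16 alternative fits, among them the fit without CONV 6 (-0.52, adjusted p = 0.108). Gstt1, Gstt2 and Gstk1, the last a mitochondrial and peroxisomal GST, did not pass, with -0.47 ± 0.41, 0.56 ± 0.25 and 0.17 ± 0.30 in CONV and -0.45 ± 0.37, 0.20 ± 0.23 and 0.41 ± 0.28 in FLASH. Without control 6, Gstt2 passed in CONV at 0.72 and Gstk1 in FLASH at 0.74 (adjusted p = 0.0254 and 0.0158, edgeR).

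Among the membrane-bound GSTs, Mgst1 rose and the other 2 did not pass. Mgst1 (chr6:138140316-138156755, plus strand), which protects endoplasmic reticulum and mitochondrial membranes from lipid peroxides, ran from 114 to 329 CPM in controls with a median of 158. CONV libraries were at 992, 460.3, 529.7, 1079 and 447 CPM, and FLASH libraries at 424 to 849 with a median of 489.8. Every irradiated library was above every control. The rise was 1.99 ± 0.30 log2 in CONV (adjusted p = 2.6e-04, edgeR) and 1.67 ± 0.29 in FLASH (adjusted p = 2.0e-04), and the groups differed by -0.32 ± 0.29 (adjusted p = 0.461).

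Mgst2, which can make leukotriene C4, had 47.2 to 154 CPM in controls, 146, 73.9, 81.0, 150.2 and 92.0 CPM in CONV and 65.5 to 159 in FLASH. Mgst3 had 92.3 to 503 CPM in controls, 294, 179, 181, 403 and 305 CPM in CONV and 134 to 457 in FLASH. In both genes the top of the control range was control 6, which lay within or above the irradiated ranges. Mgst2 differed from control by 0.54 ± 0.31 and 0.31 ± 0.28 log2 and Mgst3 by 0.35 ± 0.38 and 0.32 ± 0.35, and none passed. Without control 6 they passed in both comparisons, at 0.89 and 0.65 for Mgst2 (adjusted p = 0.0109 and 0.0320, edgeR) and 0.80 and 0.77 for Mgst3 (adjusted p = 0.0477 and 0.0400).

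Among the UGT1A enzymes, Ugt1a1 and Ugt1a7c held nearly all of the counts. All 9 Ugt1a genes are read from 1 locus on chromosome 1 in which each has a first exon of its own and all share the last exons, so reads from the shared part cannot be given to a single gene. The coding sequences of Ugt1a1 (1608 bases), Ugt1a7c (1596) and Ugt1a9 (1587) are the same over their last 740 bases. The 60 bases around the point where they join are shown, with capitals for the bases that are identical in all 3 from there to the stop codon.
Ugt1a1: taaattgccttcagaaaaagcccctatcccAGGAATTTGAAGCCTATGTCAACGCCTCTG
Ugt1a7c: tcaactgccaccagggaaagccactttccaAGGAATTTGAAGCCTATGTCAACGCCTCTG
Ugt1a9: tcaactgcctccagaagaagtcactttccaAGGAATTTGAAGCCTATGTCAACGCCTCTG
Of the 100-base windows, 57.2% in Ugt1a1 and 52.8% in Ugt1a7c also occurred in another gene. The values below are the authors' estimated division of such reads.

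Ugt1a1 (chr1:88211959-88218997, plus strand), the enzyme that conjugates bilirubin, had 125 to 281 CPM in controls with a median of 220.2. CONV libraries were at 289, 214, 285, 369 and 239 CPM, and FLASH libraries at 303 to 653 with a median of 444. Every FLASH library was above every control, while CONV overlapped both. It rose by 1.10 ± 0.21 log2 in FLASH (adjusted p = 5.3e-04, edgeR), and the CONV difference was 0.40 ± 0.22 (adjusted p = 0.193). FLASH was higher than CONV by 0.70 ± 0.22 (adjusted p = 0.0315, edgeR). That call was lost in 8 alternative fits, with adjusted p from 0.0529 to 0.0942.

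Ugt1a7c, which conjugates phenols, had 71.1 to 110.2 CPM in controls, 143, 105, 171, 165 and 139 CPM in CONV, and 138 to 253, with a median of 200.4, in FLASH. The FLASH libraries were all above the controls, and CONV 3 alone reached into the control range. It rose by 0.60 ± 0.17 log2 in CONV (adjusted p = 0.0171, edgeR; 0.0549 without CONV 6 and 0.0673 when scaled by library totals) and by 1.06 ± 0.16 in FLASH (adjusted p = 5.3e-05). FLASH against CONV gave 0.46 ± 0.16 (adjusted p = 0.0551), and it passed without FLASH 1 (0.50, adjusted p = 0.0431, edgeR) or FLASH 7 (0.53, adjusted p = 0.0299). Ugt1a2, Ugt1a6a and Ugt1a9 did not pass, with 0.80 ± 1.06, 0.59 ± 0.31 and -0.07 ± 0.69 in CONV and 1.10 ± 0.98, 0.52 ± 0.29 and 0.45 ± 0.63 in FLASH. The CONV value of Ugt1a2 was -0.40 without CONV 5.

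The UGT2 genes did not move as 1 group: in FLASH 3 of 5 rose and 1 fell, and in CONV 2 rose and 0 fell (4 higher and 0 lower at an unadjusted p under 0.05, edgeR). Over all genes, 16.7% rose and 21.0% fell in FLASH, and 10.2% and 12.0% in CONV. Ugt2b34 (chr5:86889767-86906937, minus strand) was the UGT gene with the highest CPM. Controls ran from 349 to 866 CPM with a median of 519, CONV libraries were at 798, 864, 921, 940.4 and 789 CPM, and FLASH libraries ran from 614 to 911 with a median of 853. Control 6, at 866, was the only control above 655 CPM. The rise was 0.61 ± 0.18 log2 in CONV (adjusted p = 0.0253, edgeR) and 0.54 ± 0.17 in FLASH (adjusted p = 0.0178). The CONV call was lost in 8 alternative fits, including the fit without CONV 6 (adjusted p = 0.0674). The FLASH difference was 0.18 and did not pass (adjusted p = 0.312, edgeR) when scaled by library totals.

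Ugt2b35 rose more, from 13.9 to 40.5 CPM in controls to 38.0, 34.6, 37.0, 91.0 and 38.7 CPM in CONV and 32.8 to 75.6, with a median of 54.1, in FLASH. Control 6 was the only control above 17.2 CPM. The differences were 1.29 ± 0.31 log2 (adjusted p = 0.00676, edgeR) and 1.48 ± 0.29 (adjusted p = 6.2e-04). Ugt2a3 had 28.5 to 166 CPM in controls, 144, 111, 137, 193 and 125 CPM in CONV and 77.2 to 189, with a median of 134, in FLASH. Here too control 6, at 166, lay within the irradiated ranges. It passed in FLASH at 0.83 ± 0.31 (adjusted p = 0.0411, edgeR; lost in 12 alternative fits, among them the one without FLASH 1) and not in CONV at 0.87 ± 0.33 (adjusted p = 0.0632). Without control 6 the CONV difference was 1.24 (adjusted p = 0.00270).

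Ugt2b5 (chr5:87124960-87140318, minus strand), a low-level UGT2B enzyme, had a mean above control in CONV and below it in FLASH, passing in neither. Controls had 3.15 to 11.1 CPM with a median of 3.90, CONV libraries 8.54, 7.71, 8.94, 10.8 and 12.9 CPM, and FLASH libraries 0.888 to 7.58 with a median of 3.81. Every FLASH library was below every CONV library, and both overlapped controls. The difference from control was 0.95 ± 0.43 log2 in CONV (adjusted p = 0.113, edgeR) and -0.50 ± 0.40 in FLASH (adjusted p = 0.346). Without control 6 the CONV difference was 1.34 (adjusted p = 0.0159, edgeR). FLASH against CONV was -1.45 ± 0.42 (adjusted p = 0.0209, edgeR), and -1.33 without CONV 7 (adjusted p = 0.0579). Of its 100-base windows 24.7% are shared with Ugt2b38, which had 107 counts over all 18 libraries. Ugt2b36, whose coding sequence is 88.4% identical to that of Ugt2b5, was the 1 member that fell: 4.24 to 10.9 CPM in controls, 5.03, 4.53, 3.91, 7.27 and 4.54 CPM in CONV and 1.46 to 4.90 in FLASH. Its log2 fold change in FLASH was -0.92 ± 0.28 (adjusted p = 0.0153, edgeR), and -0.57 (adjusted p = 0.0771) without control 6, CONV 6 and FLASH 1 together.

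Sult6b2 (chr6:142785204-142804502, minus strand), whose substrate is little known, was near the limit of detection in controls, with 1 to 16 counts per library or 0.0298 to 0.584 CPM, and passed the filter through the irradiated libraries. CONV libraries were at 3.404, 1.19, 3.87, 44.2 and 10.1 CPM, and FLASH libraries at 4.19 to 132 with a median of 46.9. Every irradiated library was above every control, but CONV and FLASH libraries spread over a wide range and overlapped through CONV 6 and FLASH 7. The differences from control were 5.76 ± 0.97 log2 in CONV (adjusted p = 5.9e-04, edgeR) and 7.93 ± 1.01 in FLASH (adjusted p = 1.2e-05). FLASH against CONV was 2.17 ± 0.77 (adjusted p = 0.0544). Without CONV 6 the CONV rise was 4.34, and FLASH against CONV was 3.60 (adjusted p = 0.00405, edgeR), and it was 2.38 without FLASH 7 (adjusted p = 0.0308).

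Sult1d1 (chr5:87554645-87569027, minus strand), which sulfates phenols and catecholamines in the mouse, had the highest mean CPM of all members in CONV and in FLASH. In controls its mean of 349.5 CPM was below those of Ugt2b34 (567), Sult1b1 (398) and Gsto1 (364). Controls ran from 161 to 826 CPM with a median of 266, CONV libraries were at 1938, 798, 986, 2296 and 629 CPM, and FLASH libraries ran from 1505 to 3305 with a median of 2251. Every FLASH library was above every control, and only CONV 3 and CONV 7 fell within the control range, whose top was control 6. The rise was 1.93 ± 0.39 log2 in CONV (adjusted p = 0.00255, edgeR) and 2.68 ± 0.39 in FLASH (adjusted p = 4.0e-05). FLASH against CONV was 0.75 ± 0.38 (adjusted p = 0.172), and 0.92 (adjusted p = 0.0334) without control 6, CONV 6 and FLASH 1 together.

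Sult1a1, a phenol sulfotransferase, rose by 1.13 ± 0.33 log2 in CONV (adjusted p = 0.0235, edgeR; 0.0813 without CONV 6 and 0.0663 when scaled by library totals) and by 1.54 ± 0.32 in FLASH (adjusted p = 9.99e-04), from a control median of 3.49 CPM. Sult2b1, the cholesterol sulfotransferase, rose by 0.84 ± 0.18 in FLASH (adjusted p = 0.00141, edgeR), where all 7 libraries, at 194 to 281 CPM, were above the controls at 71.5 to 187. Its CONV difference was 0.52 ± 0.19 (adjusted p = 0.0596), and 0.63 without control 6 (adjusted p = 0.0154). Sult1b1, which sulfates phenols and thyroid hormones, had 160 to 869 CPM in controls, 620, 440, 514, 872 and 737 CPM in CONV and 283 to 772 in FLASH. Control 6 gave the 869 and the next control was at 465. Its differences of 0.68 ± 0.34 and 0.42 ± 0.31 did not pass (adjusted p = 0.146 and 0.303, edgeR), and without control 6 they were 1.07 and 0.81 (adjusted p = 0.00730 and 0.0185).

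Sult1c2 (chr17:53829637-53846339, minus strand), a sulfotransferase of the 1C subfamily, was expressed at about 1 CPM and was higher in FLASH than in CONV. Controls had 20 to 52 counts per library, or 0.73 to 1.64 CPM. CONV libraries had 0.681, 0.453, 0.335, 1.49 and 0.355 CPM, and FLASH libraries 0.687 to 2.37 with a median of 1.97. All CONV libraries except CONV 6 were below every FLASH library, and neither group was separate from controls. The log2 fold change was 1.45 ± 0.40 (adjusted p = 0.0174, edgeR), beside -0.75 ± 0.41 for CONV and 0.71 ± 0.36 for FLASH against control (adjusted p = 0.183 and 0.133). The call was lost without CONV 7 (adjusted p = 0.0536), and CONV was lower than control without CONV 6 (-1.28, adjusted p = 0.0377, edgeR). Sult4a1, a sulfotransferase-like gene of neurons, was lower in all 7 FLASH libraries (0.486 to 1.598 CPM) than in controls (1.601 to 2.88), but its log2 fold change of -1.05 ± 0.41 did not pass (adjusted p = 0.0519, edgeR). It passed without FLASH 1 (-1.17, adjusted p = 0.0437) or FLASH 7 (-1.20, adjusted p = 0.0363), and FLASH was lower than CONV without CONV 6 (-0.97, adjusted p = 0.0419, edgeR).

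**Figure D4:**
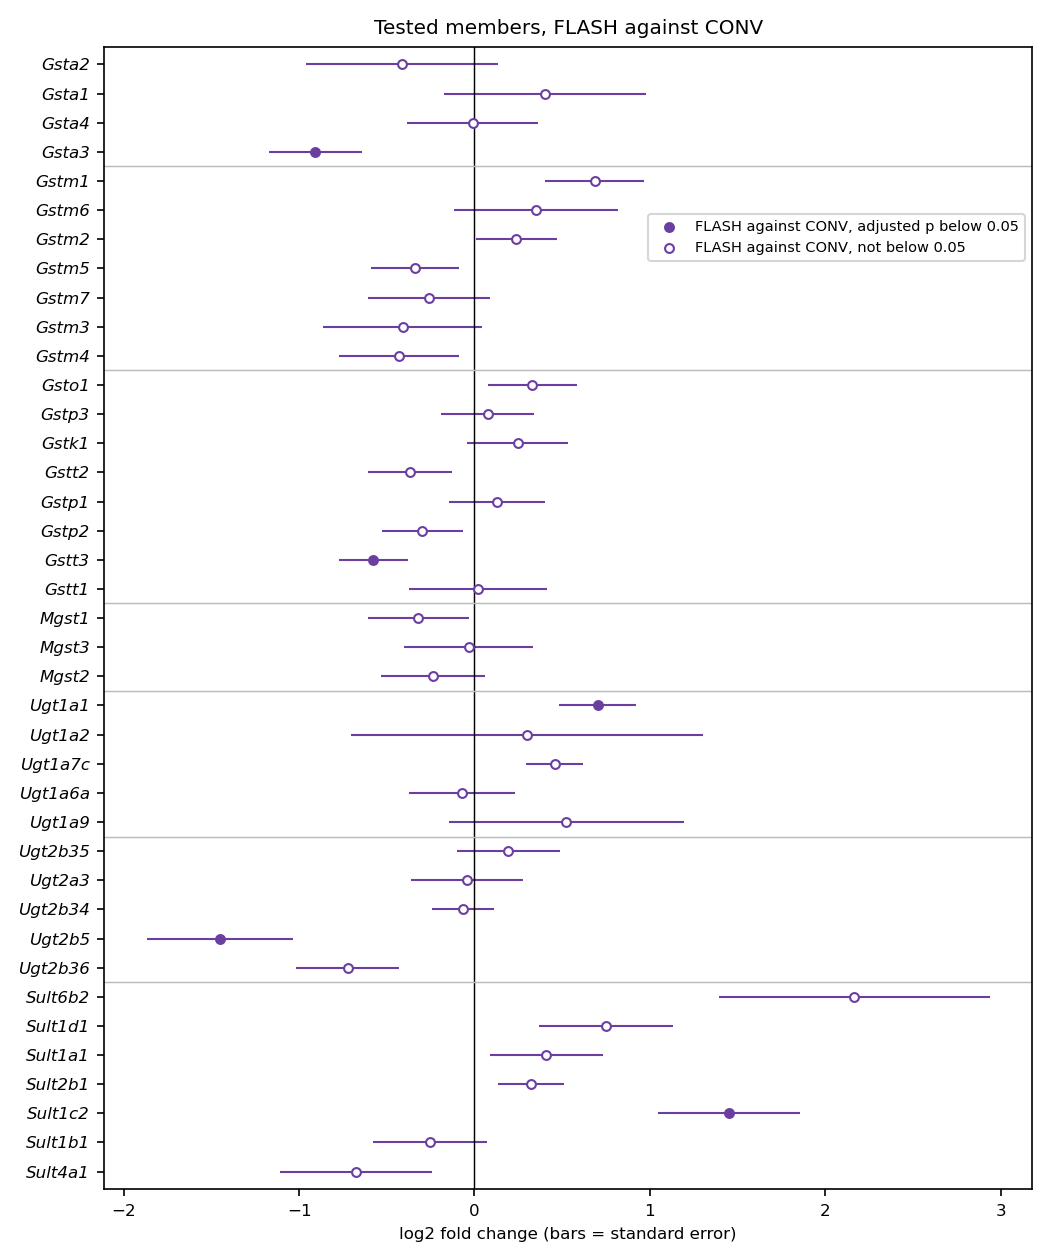
Log2 fold change of FLASH against CONV (horizontal axis, bars are SE) for the 39 tested members, grouped by family. The 5 filled points passed an adjusted p of 0.05: Sult1c2 and Ugt1a1 to the right of 0, and Ugt2b5, Gsta3 and Gstt3 to the left.

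Levels can be compared between genes per kilobase of transcript. In controls the order of mean CPM per kilobase was Gsto1 (465), Gstp1 (296), Mgst1 (213), Mgst3 (195) and Ugt2b34 (154). In CONV it was Mgst1 (848), Gsta1 (708), Gsto1 (672) and Sult1d1 (549), and in FLASH Gsta1 (935), Sult1d1 (925), Gsto1 (845) and Mgst1 (678). Gsta1 was at 76.8 in controls, below those 5. The library ranges of neighbours in each order overlapped.

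Genes of the supply and turnover of the donor molecules were read beside the transferases. The shares over all genes were 10.2% higher and 12.0% lower in CONV against control, and 16.7% and 21.0% in FLASH against control. They were 9.88% and 9.91% in FLASH against CONV. Of 11 genes of glutathione supply and turnover, 4 rose and 0 fell in each comparison with control, and 1 rose in FLASH against CONV. The latter was Gclc, the catalytic subunit of the rate-limiting enzyme of glutathione synthesis, at a mean of 33.3 CPM in control, 93.6 in CONV and 199 in FLASH (FLASH against CONV 1.09 ± 0.32 log2, adjusted p = 0.0217, edgeR). Its modifier subunit Gclm and glutathione synthetase Gss rose in both, by 0.95 ± 0.23 and 0.64 ± 0.17 in CONV and by 0.94 ± 0.22 and 0.63 ± 0.16 in FLASH. The remaining call was Ggct in CONV and Ggt1 in FLASH, which are genes of glutathione breakdown. Of 7 genes of UDP-glucuronate supply and glucuronide turnover, 4 rose in each comparison with control and 2 in FLASH against CONV. These 2 were Pgm2, a phosphoglucomutase (0.56 ± 0.15 log2), and Slc35d1, which carries UDP-glucuronate into the endoplasmic reticulum (1.11 ± 0.19, adjusted p = 0.00104, edgeR).

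Of 14 genes of sulfate and PAPS supply and turnover, 3 rose and 2 fell in CONV, and 6 rose and 4 fell in FLASH. Beside them, 10.2% of all genes rose and 12.0% fell in CONV, and 16.7% and 21.0% in FLASH. Cdo1, the cysteine dioxygenase at the start of sulfate formation from cysteine, fell to a mean of 9.77 CPM in CONV and 5.34 in FLASH from 16.8 in control (FLASH against control -1.65 ± 0.19 log2, adjusted p = 4.6e-06, edgeR). The PAPS synthase gene Papss2 went the other way, at a mean of 128 CPM in control, 170 in CONV and 406 in FLASH. It rose in FLASH (1.67 ± 0.28 log2, adjusted p = 1.5e-04, edgeR) and did not pass in CONV (0.41 ± 0.29, adjusted p = 0.290). Of 12 tested transporters that carry conjugates, 1 rose and 2 fell in CONV, and 6 rose and 2 fell in FLASH, beside the same shares. Abcc2, the apical export pump for glutathione and glucuronide conjugates, had a mean of 121 CPM in control, 196 in CONV and 458 in FLASH, and was higher in FLASH than in CONV by 1.23 ± 0.32 log2 (adjusted p = 0.0123, edgeR). Abcb1b, a drug efflux pump, rose more in CONV (2.09 ± 0.25) than in FLASH (0.97 ± 0.23), a difference of -1.13 ± 0.23 (adjusted p = 0.00314, edgeR). Its means were low, at 1.73 CPM in control, 7.38 in CONV and 3.38 in FLASH. The related pump gene Abcb1a had higher means, of 97.8 CPM in control, 98.6 in CONV and 227 in FLASH. Abcb1a rose in FLASH (1.22 ± 0.28 log2, adjusted p = 0.00238, edgeR) and did not pass in CONV (0.01 ± 0.30, adjusted p = 0.979). Slco2b1 fell in both, with -1.18 ± 0.23 in CONV and -0.96 ± 0.20 in FLASH (adjusted p = 0.0016 and 0.00125, edgeR).

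Of 29 transcription factors and cofactors known to act on such genes, 8 rose and 3 fell in CONV, 20 rose and 1 fell in FLASH, and 14 were higher and 0 lower in FLASH against CONV. Over all genes the shares were 10.2% and 12.0% in CONV, 16.7% and 21.0% in FLASH, and 9.88% and 9.91% in FLASH against CONV. The 3 of the 29 with the smallest p were Gata6, Tef and Ppara. Ppara, a fatty acid-activated receptor, had a mean of 13.6 CPM in control, 15.4 in CONV and 78.4 in FLASH (FLASH against CONV 2.35 ± 0.28 log2, adjusted p = 1.2e-04, edgeR). Nfe2l2, which encodes NRF2, and Nr1i2, which encodes the xenobiotic receptor PXR, were picked out for their role after their values were seen. Nfe2l2 rose by 1.15 ± 0.19 log2 in CONV and 0.93 ± 0.18 in FLASH, and Nr1i2 by 0.97 ± 0.23 and 2.04 ± 0.22. Among 14 tested genes of other conjugation and detoxification enzymes, 5 rose and 1 fell in CONV, and 2 rose and 5 fell in FLASH, beside the same shares. Ephx1, the microsomal epoxide hydrolase, rose by 3.03 ± 0.22 in CONV and 2.38 ± 0.20 in FLASH, and was lower in FLASH than in CONV (-0.65 ± 0.20, adjusted p = 0.0273, edgeR), the same direction as Gsta3.

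Markers of several cell types moved with the groups. Over all genes, 10.2% rose and 12.0% fell in CONV, and 16.7% and 21.0% in FLASH. In FLASH against CONV, 9.88% were higher and 9.91% lower. Of 12 enterocyte markers 8 rose in CONV and 10 in FLASH, and their summed CPM was 19156 to 44728 in control, 59306 to 111437 in CONV and 63769 to 111239 in FLASH. In FLASH against CONV, 2 of the 12 were higher and 1 lower. Summed crypt base stem cell markers were at 679 to 1148 CPM in control, 72.2 to 179 in CONV and 73.7 to 144 in FLASH, with 3 of 6 and 6 of 6 called lower. Of 4 Paneth cell markers, 4 were lower in FLASH against control and 4 against CONV, with sums of 10488 to 15151 CPM in control, 8269 to 14377 in CONV and 2765 to 8643 in FLASH. Enteroendocrine markers went the other way, 3 of 4 higher in FLASH against control and against CONV (157 to 242 CPM in control, 147 to 191 in CONV and 262 to 341 in FLASH). Leukocyte markers were lower in both irradiated groups, 3 of 4 in CONV and 4 of 4 in FLASH (71.0 to 267 CPM in control, 33.5 to 74.6 in CONV and 41.7 to 98.2 in FLASH). Of 5 smooth muscle markers 2 and 5 were lower (950.0 to 2697 CPM in control, 135 to 919 in CONV and 311 to 988 in FLASH). Of 5 goblet cell markers 1 rose and 1 fell in CONV and 2 fell in FLASH, of 4 endothelial markers 1 fell in CONV, and of 3 tuft cell markers 1 rose in FLASH. In whole tissue, more cells of a type and more RNA per cell cannot be told apart, and the part of these cell types in the changes of the conjugation genes was not tested. Of 8 hepatocyte markers 4 were tested and 1 rose and 1 fell in each comparison with control, with summed CPM of 1283 to 5086 in control, 1258 to 2939 in CONV and 2043 to 6403 in FLASH. Most of that sum was Apob, which enterocytes also express. The marker that rose was Ttr, at a mean of 1.40 CPM in control, 16.3 in CONV and 57.7 in FLASH. The marker that fell was Cps1, at a mean of 563 CPM in control, 189 in CONV and 113 in FLASH. The defining liver gene Alb was at a mean of 0.0441 CPM in control and 0.0748 in FLASH, and 3 of 5 pancreas markers were at 0 in all libraries.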

How the data were processed

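Gene-level estimated counts for 18 jejunum libraries, deposited by the authors, were used (Salmon and STAR are named with genome mm10 in the submitters' processing notes, beside edgeR 3.40.2 and limma 3.54.2). The authors' deposited log2 values were used in 1 alternative fit. Groups and replicate numbers came from the labels. Counts were rounded, genes filtered with filterByExpr (16257 of 54532 kept), scaled with TMM and fitted for all 3 groups together with edgeR 4.0.16 (glmQLFit, robust, glmQLFTest, R 4.3.3), with adjusted p under 0.05 as the threshold. CPM uses effective library sizes. DESeq2 1.42.0 and limma 3.58.1 served as alternatives. The code was tested on simulated data. Symbols, positions and coding sequences came from GENCODE M21 (54409 of 54532 IDs matched), promoter windows from RefSeq. In each family, the 2 members with the highest mean CPM, the 2 with the smallest p and every member called in FLASH against CONV were described by library, and for other lists up to 3 genes with the smallest p. Some further genes of those lists, among them Papss2, Abcb1a, Ugdh, Nfe2l2 and Nr1i2, were named outside this rule after their values were seen. The members and lists were chosen with earlier results of these data known. No 2 libraries were duplicates (chi-square per degree of freedom at least 23.3 over 153 pairs).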

Additional observations from a re-analysis of the deposited data

Results flagged for a closer look

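In 117 groups of libraries, 39 members in 3 groups, 10 had 1 library far from the others by Dixon's test on log2 CPM. Chance flags about 1 in 20 independent groups, but these are not independent, because all members were read in the same 18 libraries. FLASH 7 was low for Gsta1 (358 CPM, next lowest 745), Gstm3 (10.9 CPM, next 52.1), Sult6b2 (4.19 CPM, next 36.9) and Ugt2b34 (614 CPM, next 782). Control 6 was high for Gstm5 (20.4 CPM, next highest 11.9), Ugt2b35 (40.5 CPM, next 17.2) and Ugt2b36 (10.9 CPM, next 5.36). CONV 6 was high for Gsta2 (2.53 CPM, next 1.62) and Ugt2b35 (91.0 CPM, next 38.7), and low for Sult4a1 (0.135 CPM, next 1.49). All 10 flags fall on these 3 libraries.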

How the results depend on the processing

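Leaving out 1 library at a time gave 9 to 26 members higher and 0 to 1 lower in CONV against control, 17 to 25 higher and 1 to 2 lower in FLASH against control, and 0 to 5 higher and 1 to 4 lower in FLASH against CONV. The 26 came without control 6. Leaving out control 6, CONV 6 and FLASH 1 together, chosen after seeing the data, gave 21 higher and 1 lower in CONV against control and 6 higher in FLASH against CONV. In FLASH against control, 4 members were lower when scaled by library totals, 2 with the DESeq2 test and 2 in a fit of only these groups. In FLASH against CONV, the members higher were 1 without the filter on low counts, 4 with the DESeq2 test and 5 with a length and GC offset. With the replicate number as a block 0 were higher (Sult1c2 and Ugt1a1 had adjusted p = 0.0855 and 0.0942). Same-numbered libraries did not all deviate together (r from -0.27 to 0.606, the highest for control 6 and CONV 6), so the numbers were not taken to pair them.

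Scaling by library totals moved the median of all genes to -0.25, -0.44 and -0.18 log2 in CONV and FLASH against control and FLASH against CONV, and the share of calls that were higher from 46.0, 44.3 and 49.9% to 24.2, 17.4 and 24.4%. Under it the median member difference in FLASH against control was 0.315 log2. For the members described by library, 1289 of 1386 alternative values stayed on the same side of the threshold, 53 lost the call and 44 gained one. Of all 1386, 38 changed sign, and 0 of these were called in either fit. Low counts limit Gsta2, Sult6b2 and Sult1c2.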
